A study of Mus musculus with 4 samples.

Results

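The 31 genes described here act at the entry into S phase and in DNA replication, and all 31 were found by symbol among the 32285 genes of each count matrix. They were chosen by name for these roles, with earlier results of these data known. Single-cell RNA was measured by droplet sequencing of 3-prime ends in tumour tissue of C57Bl6 mice aged 6 to 8 weeks, in 4 libraries. By their labels, 2 are Control and 2 Nanocapsule treated. The only stated difference between the groups is that treatment, which the series title describes as enzyme nanocapsules. The labels name neither the tumour line, the enzymes, a vehicle, the dose, the time, nor the animals behind each library. Replicates may therefore be technical, and each p-value below measures only the spread between these 4 libraries.

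A cell enters S phase when cyclin E and its kinase, together with the cyclin D kinases, release E2F transcription factors from the retinoblastoma protein. E2F factors then switch on a common set of genes for origin licensing, the replicative helicase, deoxynucleotide supply, the sliding clamp and the chromatin that follows the fork. Licensing loads the ring of Mcm2 to Mcm7 on DNA with the help of Cdc6 and Cdt1, and Cdc45 and the GINS complex turn the ring into a working helicase. In a tumour most such transcripts come from cycling tumour cells, and T cells that meet antigen also divide. The study title names T cell immunity as its subject.

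Cell classes were rebuilt from clusters and named from marker genes. The first set of cells took barcodes above an order-of-magnitude UMI (unique molecular identifier) minimum of 8763 to 16257 per library and held 7044 cells, of which 6512 were melanocytic tumour-like and 184 macrophage-like. A second set with at least 1500 UMIs per cell held 9548 cells, among them 162 T-like, 54 NK-like and 157 B-like cells. All 10 melanocytic, 13 macrophage or monocyte, 11 T, 8 NK and 10 B markers were detected in their own class. The label of cancer cells thus covers immune, erythroid, stromal and other cells as well. The 4 libraries held 98943390 to 140491491 UMIs, and the median UMIs of a tumour-like cell were 38649 for Control 1 and 82691 for Control 2, then 61693 for Nanocapsule 1 and 90418 for Nanocapsule 2. Library number 2 was thus the deeper one per cell in both groups. Of the 9548 cells, 72 (0.754%) carried a barcode that another library also held.

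Promoter letters are shown first because the members are known as E2F targets, and the rule that chose them did not use sequence. RefSeq windows of build GRCm38.p6, from 250 bases before to 50 after the transcription start, were found for 27 of the 31 members. The letters TTTGGCGC or TTTCCCGC, on either strand, stood in 10 of those 27 (37.0%), against 1.80% of 27025 gene symbols in the same table. The 10 were Cdc6, Cdca7, Cdt1, Hells, Mcm3, Mcm5, Mcm6, Mcm7, Msh6 and Pclaf. Among 52 other replication and G1/S genes with a window, 13 held the letters. Such a match is a description and not a shown binding site. The 4 stretches below belong to Pclaf, Dut and Hells, the members with the clearest difference between classes, and to Mcm6, which has 2 matches. They read 5′ to 3′ on the strand of the gene, with the matched letters in capitals. GCGGGAAA is TTTCCCGC on the opposite strand. The Pclaf stretch runs from 110 bases before its start to 10 after it on chr9:65890213-65890332 (plus strand). Those of Hells (chr19:38930870-38930989, plus strand) and Dut (chr2:125247395-125247514, plus strand) are the 120 bases before the start, and that of Mcm6 (chr1:128359706-128359835, minus strand) the 130 bases before it. The Dut stretch has no match.
Pclaf: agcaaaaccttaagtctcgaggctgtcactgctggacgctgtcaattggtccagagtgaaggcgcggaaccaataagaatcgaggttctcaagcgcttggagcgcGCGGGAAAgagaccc
Hells: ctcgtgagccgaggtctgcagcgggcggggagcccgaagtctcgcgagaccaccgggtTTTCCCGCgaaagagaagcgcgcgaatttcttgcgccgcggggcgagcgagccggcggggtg
Mcm6: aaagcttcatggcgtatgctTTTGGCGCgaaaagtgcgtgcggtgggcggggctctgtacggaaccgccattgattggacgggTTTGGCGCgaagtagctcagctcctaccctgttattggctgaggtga
Dut: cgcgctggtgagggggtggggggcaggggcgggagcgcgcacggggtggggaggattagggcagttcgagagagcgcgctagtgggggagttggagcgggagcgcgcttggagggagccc

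In melanocytic tumour-like cells the replication genes were strongly expressed, and no member passed the test between groups. For this comparison UMIs were summed over the cells of each library, levels are CPM (counts scaled to the library total, with TMM normalisation) and log2 folds are nanocapsule over control with a standard error. A fold from such sums cannot tell fewer expressing cells from less RNA per cell. The edgeR quasi-likelihood test with Benjamini-Hochberg adjustment called 0 of 16176 genes (0%) and 0 of the 31 members, whose smallest adjusted p was 0.643. At an unadjusted p under 0.05 the test listed 652 genes as higher (4.03%) and 566 as lower (3.5%). Of the members, 3 were among the lower ones, Ccne1, Dut and Slbp, and none among the higher. The fold was below 0 for 29 members, as it was for 49.4% of all genes, and above 0 for Msh6 and Mcm6. Both nanocapsule libraries were below both controls for 12 members, and for 18.7% of all genes. They were above both for no member, and for 19.7% of all genes. The median fold of the members was -0.10 on the log2 scale, beside 0.00 for all genes tested. The direction of that small shift was kept without any 1 library, at medians from -0.15 to -0.03.

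The 2 number 2 libraries stood higher than the number 1 libraries for most members. The 31 genes summed to 2381 and 2539 CPM for Control 1 and Control 2, and to 2164 and 2392 CPM for Nanocapsule 1 and Nanocapsule 2. Control 2 exceeded Control 1 for 25 members and Nanocapsule 2 exceeded Nanocapsule 1 for 29, with 24 members in common. Nanocapsule 1 was the lowest library for 27 members and Control 2 the highest for 22. For the summed module the 2 nanocapsule libraries differed from each other by more than the group means did. The deeper library of each group was the higher one, and the part of depth in this order was not tested.

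**Figure D1:**
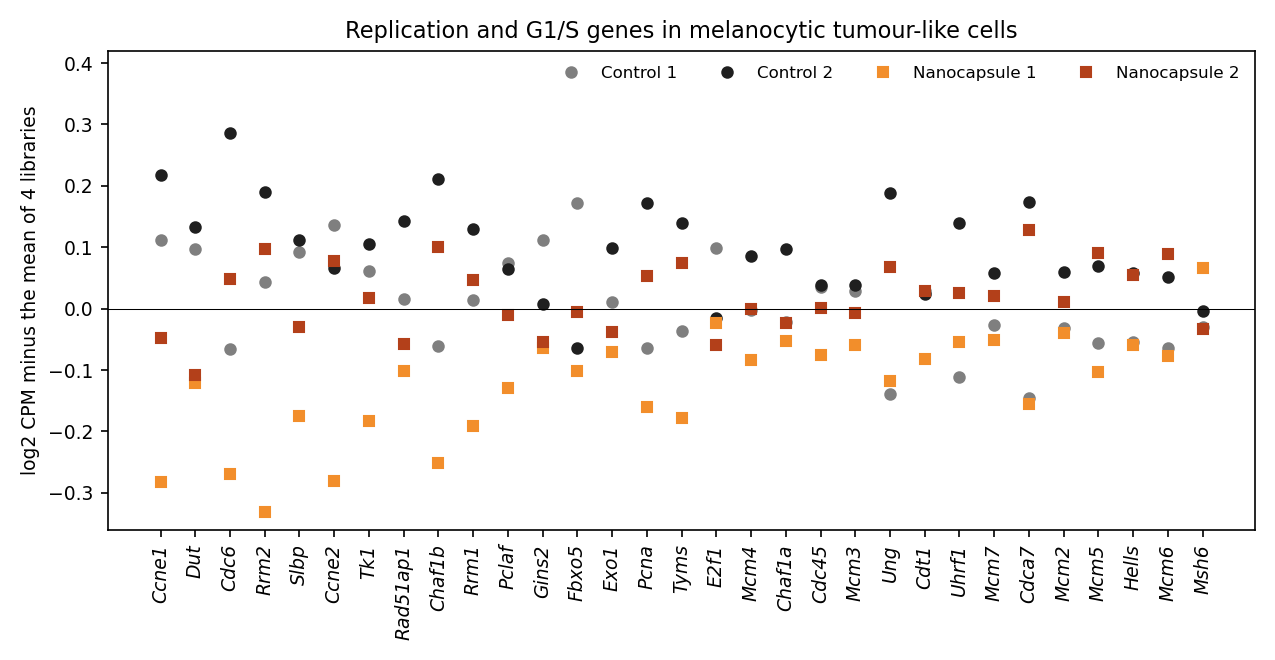
Level of each of the 31 genes in melanocytic tumour-like cells of each library, as log2 CPM minus the mean of the 4 libraries; genes are ordered by log2 fold, circles are controls and squares nanocapsule libraries. Nanocapsule 1 is the lowest point for 27 genes and Control 2 the highest for 22.

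Licensing and helicase genes differed little. Mcm2, an MCM ring subunit, stood at 137 and 146 CPM in Control 1 and 2 and at 136 and 141 CPM in Nanocapsule 1 and 2, the order used for every list of 4 values. Its fold was -0.03 ± 0.07. Mcm5, another subunit, stood at 62.5, 68.1, 60.5 and 69.2 CPM with a fold of -0.01 ± 0.09. The groups overlapped for both. None of the 6 ring subunits had a fold beyond 0.084 in either direction. The loading factor Cdt1 stood at 65.2, 64.9, 60.4 and 65.2 CPM (-0.05 ± 0.07). Cdc6, the factor that loads the ring together with Cdt1, was among the rarer members at 12.2, 15.6, 10.6 and 13.2 CPM. Its fold of -0.22 ± 0.16 came with overlapping groups.

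The cyclin that drives G1/S had the lowest fold of the module. Ccne1 stood at 29.6 and 31.8 CPM in the controls and at 22.5 and 26.5 in the nanocapsule libraries. Both nanocapsule values were below both controls, with a fold of -0.33 ± 0.10 and an edgeR adjusted p of 0.643, so it did not pass. Its partner gene Ccne2, the rarest member, stood at 9.39, 8.94, 7.02 and 9.01 CPM (-0.19 ± 0.14), with overlap. E2f1, the transcription factor upstream of the module, stood at 35.5 and 32.8 CPM in controls and at 32.6 and 31.8 in nanocapsule libraries. Those groups did not overlap, but the fold was only -0.08 ± 0.07.

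All 5 nucleotide supply genes had folds below 0 in tumour-like cells, as did 29 of the 31 members and 49.4% of all genes. Dut, the dUTPase that keeps uracil out of DNA, stood at 227 and 233 CPM in controls and at 195 and 197 in nanocapsule libraries. Its groups were separate and close within themselves, and the fold of -0.23 ± 0.07 had an edgeR adjusted p of 0.643. Tk1, a thymidine kinase of S phase, stood at 122, 126, 103 and 118 CPM (-0.16 ± 0.09, edgeR adjusted p 0.720), also without overlap. Rrm2, the cell cycle regulated subunit of ribonucleotide reductase, stood at 191, 211, 147 and 198 CPM (-0.22 ± 0.15). Nanocapsule 2 lay between the controls, so the fold of Rrm2 rested on Nanocapsule 1. The large subunit gene Rrm1 had the same order of libraries at 123, 133, 106 and 125 CPM (-0.14 ± 0.10). Tyms, thymidylate synthase, stood at 80.3, 90.7, 72.8 and 86.7 CPM (-0.10 ± 0.11), with overlap.

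Clamp, chromatin and repair genes showed the same small range. Pclaf, which binds the PCNA clamp, stood at 235, 233, 204 and 222 CPM (-0.14 ± 0.08, edgeR adjusted p 0.725). The clamp gene Pcna itself stood at 141, 166, 132 and 153 CPM (-0.11 ± 0.11). Pclaf did not overlap between groups and Pcna did. Slbp, which binds the stem loop of replication-dependent histone mRNAs, stood at 65.7, 66.6, 54.6 and 60.3 CPM (-0.20 ± 0.07, edgeR adjusted p 0.643). Rad51ap1, a DNA repair gene, stood at 37.0, 40.4, 34.1 and 35.2 CPM (-0.16 ± 0.07, edgeR adjusted p 0.691). Neither overlapped between groups. Chaf1a, a subunit of the chromatin assembly factor at the fork, stood at 55.3, 60.1, 54.1 and 55.2 CPM (-0.08 ± 0.07). Uhrf1, which guides maintenance DNA methylation, overlapped fully at 109, 130, 113 and 120 CPM (-0.03 ± 0.10). The 13 members not described had folds from -0.15 to 0.04 and edgeR adjusted p-values of 0.732 or above.

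Related gene lists moved as little in tumour-like cells, and no gene of them passed. Of 69 other replication and G1/S genes, 50 had a fold below 0, with a median of -0.05. The smallest unadjusted p belonged to Rfc2, a clamp loader subunit, at 79.2, 78.6, 63.4 and 67.5 CPM (-0.27 ± 0.07, edgeR adjusted p 0.643). The 32 mitosis genes had 18 folds below 0 and a median of -0.06, and the 30 tested G1/S control genes 19 and -0.07. Of 10 replication-dependent histone genes 7 had folds above 0, with a median of 0.07. These mRNAs mostly lack a poly(A) tail, and 3-prime counting from poly(A) reads them only in part. Hist1h1c, a linker histone gene, stood at 29.9, 32.0, 35.8 and 39.1 CPM (0.28 ± 0.08, edgeR adjusted p 0.643).

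The share of positive cells overlapped between the groups for the abundant members. Each tumour-like cell was thinned to 8000 UMIs, so that all cells had the same chance to show a transcript, and the shares of cells with at least 1 UMI ranged from 5.16% for Ccne2 in Nanocapsule 1 to 72.8% for Dut in Control 2. Dut was found in 67.1%, 72.8%, 64.7% and 67.2% of cells. Pcna was found in 53.2%, 66.9%, 52.8% and 57.0%. Rrm2 was found in 50.1%, 59.2%, 43.8% and 56.9%. Control 2 was highest and the groups overlapped for all 3. The share was larger in Control 2 than in Control 1 for 28 of 31 members, and larger in Nanocapsule 2 than in Nanocapsule 1 for 28. Over the members the mean share was 1.68 percentage points lower in nanocapsule libraries after thinning. Without thinning it was 2.96 percentage points higher, in step with the depth per cell. A tumour-like cell held a median of 12, 16, 10 and 14 UMIs of the 31 genes per 8000 UMIs. At least 20 were held by 33.4%, 40.9%, 31.6% and 38.2% of cells.

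Within tumour-like cells the members rose and fell together to different degrees. Cells of each library were ranked by the UMIs of the other 30 genes and split into 5 equal groups, and the mean of a gene in the highest group was divided by that in the lowest. That gave a ratio in at least 1 library for 26 members (the other 5 had under 10 UMIs in the lowest group), and the lowest was 2.98. Slbp had ratios of 2.98 to 5.27 over the 4 libraries and Msh6, a mismatch repair gene, 4.04 to 5.88. Rrm2 had 27.3 to 37.6, Tk1 26.0 to 48.3, Uhrf1 26.5 to 35.9 and Mcm3 21.9 to 32.4. Pclaf had 18.1 to 67.2, the widest span of these. Members too rare in the lowest group for a ratio, such as Rad51ap1 with 3 and 423 UMIs in the lowest and highest group of Control 1, are left out of this order. Among the ring subunits Mcm2 was the flattest, with 6.72 to 10.1.

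A second ranking used 32 mitosis genes in place of the members, and the members differed in how far they rose along it. No phase was assigned to any cell. Pclaf, Tk1 and Rrm2 were much higher in cells with many mitosis transcripts, with ratios of 10.4 to 40.8, 9.64 to 20.2 and 8.10 to 14.5. E2f1 had ratios of 1.00 to 2.04 and Msh6 of 0.897 to 1.55. Ung, the uracil DNA glycosylase, ran the other way at 0.077 to 0.526 in the libraries where a ratio could be formed. Its highest groups there held only 10, 4 and 1 UMIs, in Control 1, Nanocapsule 1 and Nanocapsule 2. Members too rare in the lowest group again have no ratio, such as Fbxo5 with 1 and 216 UMIs in the lowest and highest group of Control 1. Over cells, the summed members and the summed mitosis genes had a Pearson correlation of 0.165 to 0.220 in the 4 libraries. Those points share the cell and its thinned total, and the value is given as a description.

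**Figure D2:**
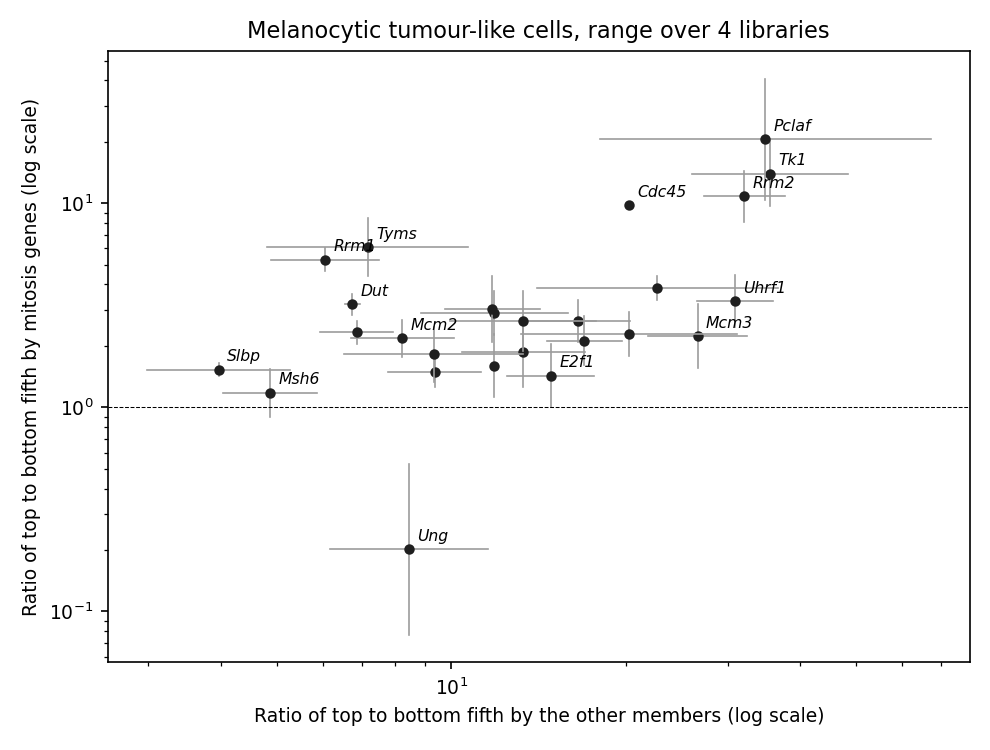
Ratio of the mean UMIs of a gene in the highest to the lowest of 5 equal groups of melanocytic tumour-like cells, with cells ranked by the other members (horizontal) or by the mitosis genes (vertical), both on log scales; lines span the libraries that gave a ratio and points are the geometric middle of that span. Pclaf, Tk1 and Rrm2 lie high on both axes, and Ung lies below the dashed line at a ratio of 1.

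Between cell classes the module was high in tumour-like cells of all 4 libraries and in T-like cells of 3, and these levels are a description with no test. The sum of the 31 genes, in CPM without normalisation, was 2295, 2642, 2126 and 2426 in tumour-like cells. It was 2515, 775, 2915 and 2704 in T-like cells, with Control 2 far below the other 3 libraries and below the macrophage-like and NK-like sums of the same library. In macrophage-like cells of at least 1500 UMIs it was 905, 1494, 793 and 1541, in B-like cells 699, 470, 539 and 587, and in NK-like cells 379, 1241, 567 and 640. Of these classes without NK-like cells, tumour-like cells had the highest level for 12, 24, 10 and 12 members in the 4 libraries, and T-like cells for 18, 2, 20 and 15. Macrophage-like cells did so for 0, 4, 0 and 3. The T-like levels came from only 137, 243, 821 and 1709 member UMIs, in 13, 63, 37 and 49 cells. Pcna stood at 123, 231, 129 and 186 CPM in macrophage-like cells, and at 136, 173, 130 and 155 CPM in tumour-like cells. Macrophage-like cells were thus above tumour-like cells for Pcna in the number 2 libraries only. Cdt1 was highest in B-like cells of all 4 libraries, at 138, 94.1, 131 and 115 CPM beside 63.0, 67.6, 59.4 and 66.4 CPM in tumour-like cells. Counts of 3-prime ends do not scale with transcript length.

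**Figure D3:**
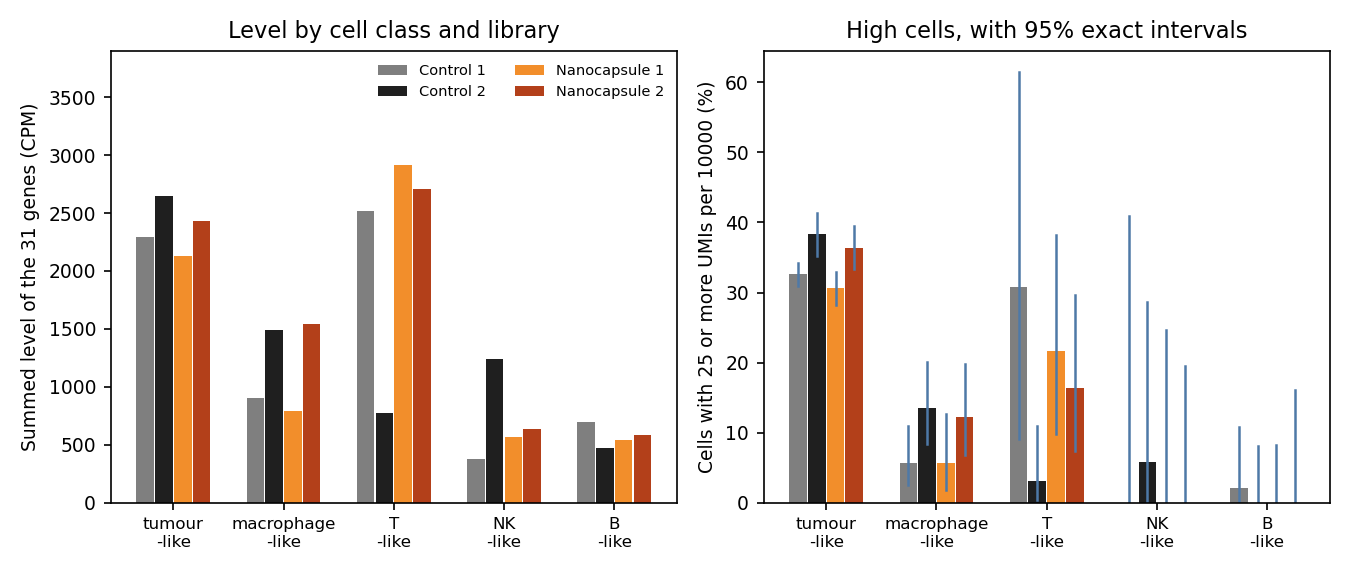
Left, summed level of the 31 genes (CPM) in each cell class and library; right, percent of cells with 25 or more UMIs of these genes per 10000, with 95% exact binomial intervals as lines. T-like cells of Control 2 stand at 775 CPM, and the other 3 T-like libraries at 2515 to 2915 CPM.

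Levels of free RNA were measured beside the immune classes. Barcodes of 10 to 100 UMIs, which were not called cells, carried the members at 1938 to 2756 CPM, about the level of tumour-like cells. As shares of the tumour-like level, the members stood in them at 109%, 104%, 91.0% and 93.6%. Melanocytic markers stood in them at only 58.0%, 62.0%, 46.6% and 55.1%. In T-like cells these markers stood at 1.91%, 1.97%, 0.549% and 0.441% of their tumour-like level. The members there stood at 110%, 29.3%, 137% and 111% of theirs. In macrophage-like cells the markers stood at 33.8%, 16.5%, 27.6% and 23.6% and the members at 39.4%, 56.5%, 37.2% and 63.3%. Control 1 and Nanocapsule 1 had the higher markers and the lower members. The part of free RNA and of doublets in the macrophage-like levels was not tested. Nor was the part of marker expression by these cells themselves, such as of Gpnmb.

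In macrophage-like cells no member passed the test, and the direction of the module turned with 1 library. Of the 31 members 26 were in the fit of the 184 cells, and edgeR called 0 of 7654 genes (0%). At an unadjusted p under 0.05 the test listed 126 genes as lower (1.65%) and 205 as higher (2.68%), and none of the members. The fold was below 0 for 24 of the 26 and for 49.5% of all genes, with a median of -0.50 beside 0.01 for all genes. No member was free of overlap between the groups, against 15.9% of genes on the lower side. Without Control 2 the median was 0.38 and 20 of 26 members had a fold above 0. With macrophage-like cells of at least 1500 UMIs it was 0.03.

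Control 2 was the highest macrophage-like library for each of the 6 genes named by rank. Pcna stood at 160, 333, 178 and 209 CPM, with a fold of -0.36 ± 0.34. Pclaf stood at 65.0, 207, 49.3 and 129 CPM (-0.60 ± 0.64). Mcm6 stood at 55.7, 137, 37.9 and 90.1 CPM (-0.58 ± 0.51). Number 2 libraries, the deeper ones, were again the higher of each group, and the groups overlapped for each of these 3. The smallest unadjusted p-values belonged to E2f1 at 29.7, 64.8, 13.9 and 31.5 CPM (-1.02 ± 0.49), Hells at 24.1, 71.9, 13.9 and 32.2 CPM (-1.03 ± 0.56) and Gins2, a subunit of the GINS complex, at 37.1, 70.7, 22.8 and 44.4 CPM (-0.66 ± 0.43). Hells is a chromatin remodeller of the SNF2 family. All 3 had an edgeR adjusted p of 0.994. The mitosis list had 32 of 32 folds below 0, against 49.5% of all genes, with a median of -0.79, and none passed. Its order of libraries was another one, with a summed level of 1808, 1415, 397 and 1299 CPM and Control 1 highest. Both nanocapsule libraries were below both controls for 17 of the 32 genes, against 15.9% of all genes and no member.

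A small group of cells held much of the macrophage-like signal. Cells with at least 25 member UMIs per 10000, a limit set after the data were seen, numbered 8 of 140, 20 of 148, 5 of 89 and 14 of 114 macrophage-like cells of at least 1500 UMIs. They held 33.5%, 76.7%, 33.1% and 72.8% of the member UMIs of the class. Outside them the level was 658, 494, 572 and 578 CPM, a range that the limit itself narrows. High cells were deeper, with medians of 9485, 19029, 14578 and 41406 UMIs beside 6049, 8412, 11748 and 13093 in the others. Melanocytic markers stood at 76.1, 32.2, 11.4 and 59.8 UMIs per 10000 in them beside 46.2, 16.8, 39.5 and 20.6, so they were higher in the high cells of all libraries but Nanocapsule 1. Macrophage markers were lower in the high cells of each library, at 109.6, 138, 109.3 and 107 beside 124, 181, 112 and 158. The part of depth and of doublets with tumour cells was not tested. Pcna was the member most often seen in macrophage-like cells, in 19.3%, 18.9%, 13.5% and 18.4% of cells thinned to 1500 UMIs. The same shares in B-like cells were 8.16%, 4.55%, 6.98% and 19.05%.

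The largest folds of the module were seen in T-like with NK-like cells. In T-like cells alone the summed level of 2515, 775, 2915 and 2704 CPM, without normalisation, set only Control 2 apart. T-like cells alone were not fitted, because Control 1 held 13 of them and the rule asked for 20 per library. T-like and NK-like cells were summed together instead, an alternative added after the data were seen, with 20, 80, 50 and 66 cells. Of the 31 members 22 were in that fit. The other 9 had 11 to 32 UMIs over the 4 sums. A gene this rare enters such a fit mainly through the libraries where it is high, so the counts over the 22 are no evidence of direction. The edgeR test called 0 of 5577 genes (0%) and no member, the smallest adjusted p being 0.116 for Pclaf. At an unadjusted p under 0.05 it listed 217 genes as higher (3.89%) and 209 as lower (3.75%). Of the members in the fit 13 were on the higher side and none on the lower. The fold was above 0 for 21 of the 22 and for 50% of all genes, with Cdt1 as the exception, and the median was 1.38 beside 0.00 for all genes. Both nanocapsule libraries lay above both controls for 13 of the 22, and for 18.4% of all genes in the fit. That count holds for the joint sums. In T-like cells alone, without normalisation, Pcna overlapped at 184, 83.0, 167 and 161 CPM, as did Slbp and Mcm4. Others did not, such as Pclaf at 110, 25.5, 323 and 364 CPM. The part of NK-like cells in the count was not tested.

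Pclaf had the largest fold of the module in this fit. It stood at 72.9 and 21.8 CPM in the controls, from 6 and 8 UMIs, and at 300.3 and 336 CPM in the nanocapsule libraries, from 92 and 230 UMIs. Its fold was 3.23 ± 0.46. Dut stood at 182 and 73.6 CPM in the controls and at 408 and 362 in the nanocapsule libraries (1.85 ± 0.39, edgeR adjusted p 0.309). Neither overlapped between groups, and Control 2 was the lowest library for both.

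Chromatin genes and the other abundant members followed with smaller folds. Hells stood at 12.1 and 13.6 CPM in the controls, from 1 and 5 UMIs, and at 84.9 and 75.9 in the nanocapsule libraries, from 26 and 52 (2.55 ± 0.47, edgeR adjusted p 0.258). Uhrf1 stood at 36.4, 16.4, 97.9 and 61.3 CPM (1.87 ± 0.52, edgeR adjusted p 0.456). Mcm6 stood at 97.2, 98.1, 170 and 169 CPM (0.79 ± 0.29, edgeR adjusted p 0.629). All 3 were without overlap. Rrm2 showed a different pattern at 121, 38.2, 97.9 and 97.8 CPM (0.74 ± 0.46), since Control 1 was its highest library. Cdt1 stood at 48.6, 89.96, 71.8 and 42.3 CPM (-0.55 ± 0.42), with overlap.

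Other lists in T-like with NK-like cells gave the following values, with no gene passing. The fit held 8 of 12 histone, 17 of 32 mitosis and 47 of 69 other replication genes. As with the members, counts over these lists are no evidence of direction. The fold was above 0 for 50% of all genes. The 8 histone genes in the fit all had folds above 0, with a median of 2.55. Hist1h1b, a linker histone gene, stood at 24.3, 5.45, 144 and 327 CPM (4.67 ± 0.69, edgeR adjusted p 0.116). The 17 mitosis genes in the fit had folds above 0 with a median of 1.46, but none was free of overlap. Their summed level was 1944, 248, 973 and 1952 CPM, as high in Control 1 as in Nanocapsule 2. Of 47 other replication genes 41 had folds above 0, with a median of 0.68, among them Gmnn, the inhibitor of Cdt1, at 48.6, 16.4, 94.7 and 107 CPM (2.12 ± 0.48, edgeR adjusted p 0.334). In the same sums 4 of 4 melanocytic markers in the fit were lower in nanocapsule libraries, with a median of -2.21. Of the 8 NK markers 7 were lower, with a median of -0.52. NK-like cells made up 7 of 20, 17 of 80, 13 of 50 and 17 of 66 cells in the sums.

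The nanocapsule fold in T-like with NK-like cells was then set against that in tumour-like cells of the same libraries, in 1 model with a term for each library. This test of the difference between classes called 73 of 15601 genes (0.468%) and 4 of 31 members. Pclaf had a difference of 3.46 ± 0.41 on the log2 scale (edgeR adjusted p 8.78e-14) and Dut of 2.20 ± 0.34 (edgeR adjusted p 7.49e-08). Hells had 2.66 ± 0.59 (edgeR adjusted p 0.00273) and Uhrf1 2.03 ± 0.54 (edgeR adjusted p 0.0376). The model gives a gene 1 spread for both classes, and the tumour-like sums hold far more counts than the others. Without library terms the smallest edgeR adjusted p of a member was 0.00138, so the size of these p-values depends on the model. Of the 31 members 22 were at an unadjusted p under 0.05, beside 6.04% of all genes. The difference was above 0 for 30 of 31, with Cdt1 the exception, and the median was 1.57 beside 0.03 for all genes. Without Control 2 it was above 0 for 24 of 31, with a median of 0.56 beside 0.23 for all genes. Exo1, an exonuclease of mismatch repair, had 0 UMIs in both control sums. The bound that 3 counts in the control group allow is a log2 fold of at least 1.06 in T-like with NK-like cells. With Exo1 at that value, the median difference over all 4 libraries was 1.502.

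The number of members past the threshold depended on the libraries used. Without Control 1, the library with 20 such cells, 15 members passed. Without Control 2 only Pclaf passed (edgeR adjusted p 0.00256), and without either nanocapsule library 2 members passed. Without library terms 3 of 15601 genes passed, 2 of them members, Pclaf and Dut. Pclaf passed in each of these fits. The same difference between macrophage-like and tumour-like cells passed for 78 of 16154 genes (0.483%) and 0 members, and that between B-like and tumour-like cells for 7 of 15174 genes (0.0461%) and 0 members.

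**Figure D4:**
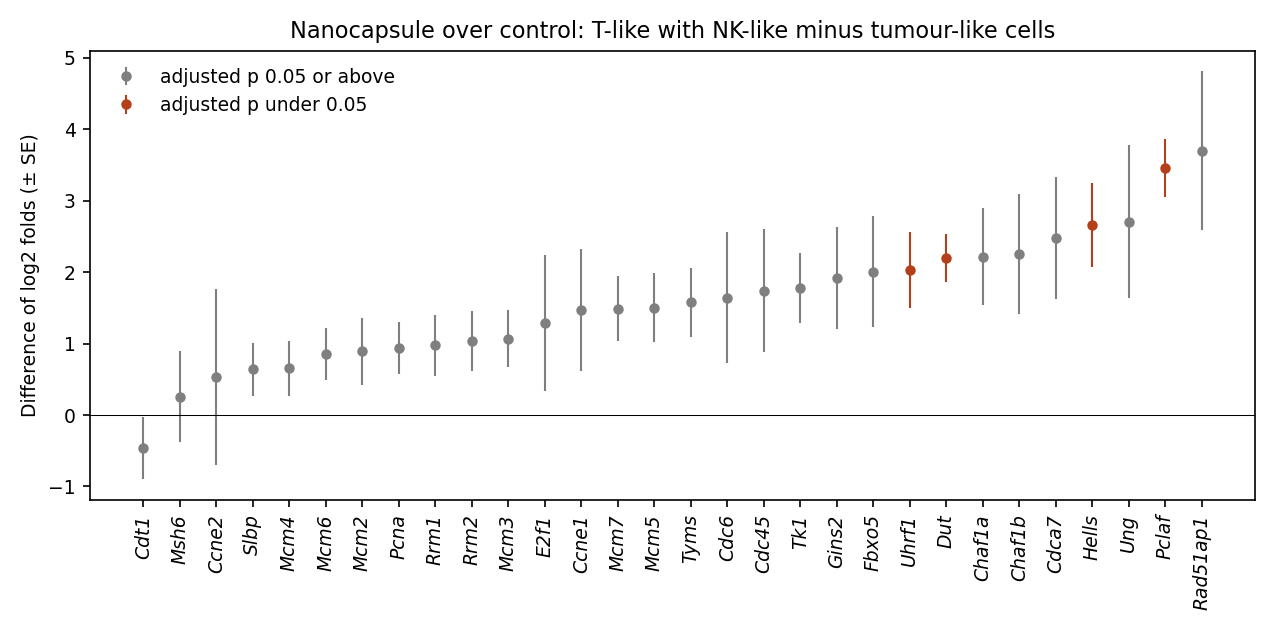
Difference between the nanocapsule log2 fold in T-like with NK-like cells and that in melanocytic tumour-like cells for 30 members, with standard errors as lines; Exo1, with 0 UMIs in the control sums, is not drawn. Pclaf, Dut, Hells and Uhrf1, in red, had an adjusted p under 0.05, and Cdt1 is the one point below 0.

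The T-like signal sat in few cells. Those with at least 25 member UMIs per 10000 numbered 4 of 13 in Control 1 (30.8%, 95% exact binomial interval 9.09 to 61.4), 2 of 63 in Control 2 (3.17%, 0.387 to 11.002), 8 of 37 in Nanocapsule 1 (21.6%, 9.83 to 38.2) and 8 of 49 in Nanocapsule 2 (16.3%, 7.32 to 29.7). Control 2 was low and Control 1 was not, so the groups overlapped. These cells are the top of a range and not a type, and 1, 3, 1 and 3 cells lay between 20 and 30. They held 91.2%, 27.6%, 89.2% and 76.3% of the member UMIs of the class. Outside them the level was 526, 612, 623 and 1010 CPM. The median T-like cell held 11.6, 5.66, 5.93 and 6.89 member UMIs per 10000. In that middle of the class the nanocapsule libraries were thus not above both controls.

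High T-like cells carried T cell markers at 46.1, 37.5, 38.3 and 52.6 UMIs per 10000, each below the 51.2, 58.1, 44.3 and 60.8 of the other T-like cells. Macrophage markers stood at 12.6, 17.8, 24.9 and 4.68 in them beside 8.32, 12.9, 6.79 and 13.8, so they were higher in the high cells of 3 libraries. Melanocytic markers stood at 3.79, 1.16, 0.288 and 0.303 per 10000 in them, against 125 to 134 in high tumour-like cells. High T-like cells were deeper, with medians of 6618, 12931, 18376 and 31532 UMIs beside 2583, 4288, 4621 and 7124. The part of doublets between T cells and other cells, and of cell size, was not tested.

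**Figure D5:**
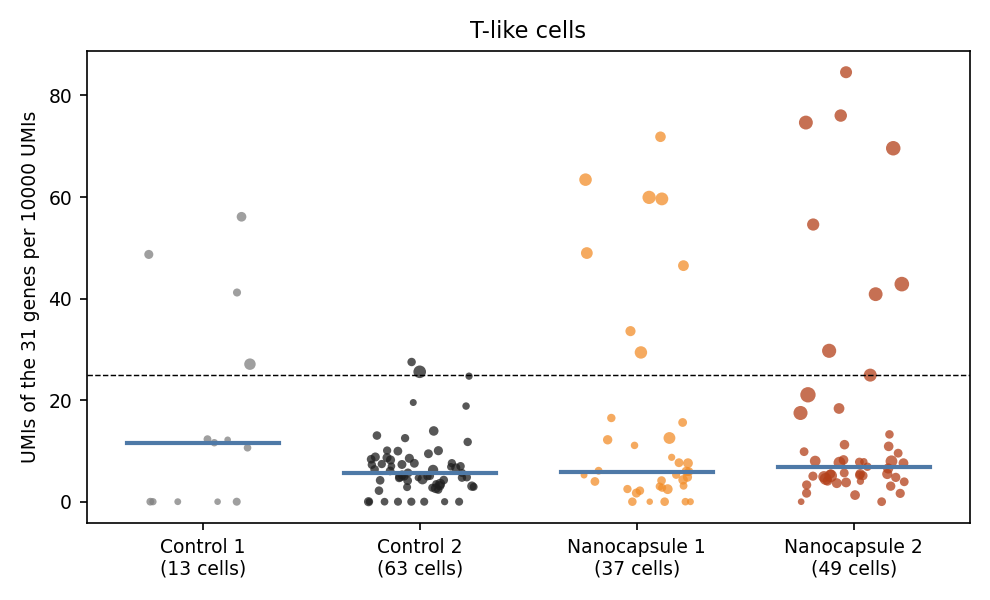
Each point is 1 T-like cell, placed by its UMIs of the 31 genes per 10000 UMIs and sized by its depth; the blue line is the median of the library and the dashed line the limit of 25. High cells number 4 of 13, 2 of 63, 8 of 37 and 8 of 49, so Control 1 and both nanocapsule libraries hold them in larger shares than Control 2.

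The makeup of the module differed from library to library in T-like cells and little in tumour-like cells. Pclaf was 4.38% of member UMIs in T-like cells of Control 1 (95% exact binomial interval 1.62 to 9.29) and 3.29% in Control 2 (1.43 to 6.38). It was 11.1% in Nanocapsule 1 (9.02 to 13.4) and 13.5% in Nanocapsule 2 (11.9 to 15.2). Between the groups only the intervals of Control 1 and Nanocapsule 1 met, and in tumour-like cells the share was 9.18% to 9.87%. Dut was 10.2% and 6.17% in the controls and 15.2% and 14.3% in the nanocapsule libraries, where tumour-like cells had 8.23% to 9.53%. Rrm2 was 7.30% (3.56 to 13.0) and 1.23% (0.256 to 3.57) in the controls and 3.65% and 3.92% in the nanocapsule libraries. These intervals cover counting error only, and UMIs of 1 cell are not independent.

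Shares of positive T-like cells were low at an equal depth of 1500 UMIs per cell. Pclaf was seen in 1 of 13, 1 of 63, 5 of 37 and 10 of 49 cells, that is 7.69%, 1.59%, 13.5% and 20.4%. In B-like cells, which serve as a background class here, it was seen in 2.04%, 2.27%, 0% and 0%, and 0 of 43 and 0 of 21 cells allow up to 6.98% and 14.3%. The median depth before thinning was 3122 to 7341 UMIs in T-like and 1833 to 3324 in B-like cells. Dut was seen in 23.1%, 4.76%, 27.0% and 18.4% of T-like cells, and in 12.2%, 2.27%, 2.33% and 4.76% of B-like cells. For Pclaf both nanocapsule libraries were above both controls, while Dut overlapped. Without thinning Pclaf was seen in 23.1%, 11.1%, 21.6% and 28.6% of T-like cells, and the groups overlapped. The exact intervals of Pclaf in Control 1 (0.195% to 36.03%) and Nanocapsule 2 (10.2% to 34.3%) overlapped as well. Any member was seen in 53.8%, 58.7%, 62.2% and 69.4% of T-like cells.

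B-like cells held few member transcripts, with 66, 60, 66 and 41 UMIs of the 31 genes in the 4 sums. Of 1955 genes in the fit edgeR called 3 (0.153%). Cdt1 was the only member in it, at 178, 120, 170 and 147 CPM (0.14 ± 0.41, edgeR adjusted p 0.987), with overlap. Without Control 2 its fold was -0.17. The other 30 members were too rare to be fitted. Cdt1 was seen in the largest share of B-like cells, level with Pcna in Nanocapsule 2, at 22.4%, 15.9%, 18.6% and 19.05% of cells at 1500 UMIs, against 9.15%, 9.75%, 7.73% and 8.80% of tumour-like cells. The shares of B-like cells with Cdt1 differed between libraries by less than their counting intervals.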

How the data were processed

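Per the labels, the chemistry was 10x Genomics 3-prime v2. The files the authors deposited are raw UMI counts for all barcodes, 1 matrix a library. Cell Ranger 2.1.1 and mm10 stand in the submitters' processing notes, but Cell Ranger 4 stands in the headers of the matrices. Gene totals of 98943390 to 140491491 UMIs per library set the precision.

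A cell needed 200 genes, no more than 20% mitochondrial UMIs and, as its UMI minimum, percentile 99 of the top 3000 barcodes divided by 10, or 1500 UMIs for T-like, NK-like and B-like cells. Scrublet marked 4 of 7044 and 13 of 9548 cells, which counts as not working, and no doublet was removed. Cells were clustered in scanpy 1.11.5 (2000 variable genes, 30 components, 15 neighbours, Leiden resolution 1.0) and named from marker lists. The limits for a name were set after the data were seen.

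Sums of UMIs per class and library were tested with edgeR 4.0.16 in R 4.3.3 (TMM, filterByExpr, robust quasi-likelihood test, Benjamini-Hochberg adjustment at 0.05). The standard error was derived from the fold and its F statistic. Differences between classes are interaction terms in a fit with library terms. Shares carry 95% exact Clopper-Pearson intervals. A share of 0 is given with the share that 3 cells would make, and neither covers more than counting error. On simulated data with 2 libraries per group the tumour-like test recovered 83.8% of genes changed by 1 log2 unit and 99.0% of those changed by 2. The T-like with NK-like test recovered 15.6% and 74.4%, and the macrophage-like test 16.5% and 87.1%. The test of the T-like with NK-like against tumour-like difference recovered 7% and 53%. False calls numbered 13 in the tumour-like test, 1 in the T-like with NK-like test and 1 in the macrophage-like test. They numbered 0 in the test of the difference, and 4 in it without library terms.

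The members and gene lists were chosen with earlier results of these data known. The genes named in tumour-like cells were the 6 members with the smallest p, the 6 most abundant and a fixed set of 14. In each immune class they were the 3 most abundant and the 3 with the smallest p, and in the other lists the 2 with the smallest p, of which 1 per list is printed. Rrm2 and Cdt1 in T-like with NK-like cells were added after their values were seen. Alternatives were other size factors, no filter, the DESeq2 1.42.0 Wald test, a replicate block, each library left out, another resolution, other cell limits and other thinning depths. A planned exact permutation test of the share of cells with any member UMI was not run, because the smallest p of 2 libraries against 2 cannot reach 0.05 and a share over all members is a score over the list. Protein sequences were not analysed here.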

Additional observations from a re-analysis of the deposited data

Results flagged for a closer look

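The nanocapsule effect on 4 members differed between T-like with NK-like cells and melanocytic tumour-like cells by an interaction test in edgeR, and these 4 are listed for a closer look. The difference of the log2 folds was 3.46 for Pclaf, 2.20 for Dut, 2.66 for Hells and 2.03 for Uhrf1. Each was positive because the fold was above 0 in T-like with NK-like cells and below 0 in tumour-like cells. None of the 4 passed the main edgeR test within T-like with NK-like cells or within tumour-like cells. Pclaf passed in each of the 6 fits of this difference. Dut missed the threshold without Control 2, at a difference of 1.42. Hells and Uhrf1 missed it without Control 2, without either nanocapsule library, and without library terms. The control sums behind these values held 14 UMIs of Pclaf, 42 of Dut, 6 of Hells and 9 of Uhrf1. No group holds over 2 libraries, so single libraries were not searched for outliers.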

How the results depend on the processing

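Over 46 results and 457 alternative values, 410 kept their direction and their side of the threshold. In tumour-like cells 0 members passed under every alternative except the replicate block, where 2 passed (Ccne1 and Dut) and 631 of 16176 genes. The labels do not say that equal numbers mark a shared animal or day. Over all genes, same-numbered libraries deviated together with a correlation of 0.37 in tumour-like, 0.17 in macrophage-like, -0.10 in T-like with NK-like and 0.05 in B-like cells. Over the members alone the correlation was 0.47 in tumour-like, 0.11 in macrophage-like and -0.33 in T-like with NK-like cells. The block changed no call of a member in the other classes. The DESeq2 Wald test called 95 genes and the fit with no filter 6, and leaving out 1 library 6 to 76, with no member among them. With 1 library left out, small tumour-like folds turned sign without Control 2 or Nanocapsule 1, running from -0.22 to 0.013 for Pcna, -0.073 to 0.017 for Mcm2, -0.11 to 0.079 for Mcm5, -0.24 to 0.017 for Tyms and -0.15 to 0.096 for Uhrf1. Macrophage-like folds turned without Control 2 and ran from -0.77 to 0.29 for Pcna, -1.49 to 0.49 for Pclaf, -1.38 to 0.24 for Mcm6 and -1.84 to 0.0073 for Hells. At 1500 UMIs Pclaf stood at 0.024 and Mcm6 at 0.11 in them. The macrophage-like median ran from -1.25 to 0.38 with 1 library left out.

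In T-like with NK-like cells, whose alternatives were added after seeing the data, 3 members passed with no filter, 1 by the DESeq2 Wald test and 0 to 2 with 1 library left out, and the median then ran from 0.31 to 1.73. The class difference passed for 2 members with no library terms and 1 to 15 with 1 library left out. Cdt1 in B-like cells ran from -0.17, without Control 2, to 0.38. Thinning tumour-like cells to 4000 or 1500 UMIs kept the lower mean share of nanocapsule libraries. The causes were not tested. The depth of T-like and B-like cells leaves 9 and 30 members unfitted.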
